A study of Homo sapiens with 6 samples.

Results

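Keratins are the intermediate filament proteins of epithelial cells, and 10 of their genes are described here in RL95-2 cells treated with medium from human adipocytes. They were taken from the count tables by symbol: KRT5, KRT13, KRT15, KRT16 and KRT17 of basal or stratified epithelium, KRT7, KRT8, KRT18 and KRT19 of simple epithelium, and KRT80. They are 10 of the 55 keratin genes and of the 23228 genes counted. RL95-2 is an established human endometrial carcinoma line that was grown in RPMI with 10% fetal bovine serum. The 3 Control samples spent 24 h in serum-free RPMI mixed 1:1 with plain DMEM, and the 3 ADP-CM samples spent the same time in serum-free RPMI mixed 1:1 with adipose-conditioned medium, that is, the filtered DMEM in which floating adipocytes isolated from human adipose tissue had been kept. Serum withdrawal was therefore shared by both groups, the cells came from 1 line, and the labels do not say whether samples of a group were separate cultures, so the spread between them may be technical. The question was how the keratin genes differed between the groups. They were picked with results of this comparison already known, so the differences of the 10 genes are given as a description without a test. Tests are given only for other genes. The lists of those genes were also chosen with earlier results of these data known, which their adjusted p values do not take into account.

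Keratin filaments are built from obligate pairs of a type I and a type II protein. KRT8 (type II) and KRT18 (type I) form the primary pair of simple epithelia, with KRT7 (type II) and KRT19 (type I) added in glandular and ductal cells. Basal cells of stratified epithelia carry KRT5 (type II) with its partner KRT14 and with KRT15 (both type I). The layers above the basal layer of mucosal epithelia switch to KRT13 (type I) with KRT4. KRT16 and KRT17 (both type I), with type II partners of the KRT6 group, appear in wounded or activated epithelium. KRT80 is a type II keratin found near desmosomes.

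Between 16262614 and 18363033 reads per library fell on genes, and the Control libraries were the shallower group. The 10 genes took 0.605 to 0.619% of these reads in Control and 0.495 to 0.505% in ADP-CM. Every pair of libraries within a group differed by more than sampling noise, with chi-square over degrees of freedom from 1.23 to 2.05, the highest between ADP-CM replicates 2 and 3. Reads assigned to no gene were 10.2 to 10.3% of counted reads in Control and 11.5 to 11.6% in ADP-CM, a difference whose part in the results below was not tested. Markers of epithelial and Müllerian identity were present only in part. Of 12, 8 were tested, and 3 rose and 2 fell at an adjusted p under 0.01 by edgeR. Of all tested genes, 13.5% rose and 13.0% fell at this threshold. Without ADP-CM replicate 3 the numbers of markers were 1 and 2. EPCAM, the epithelial adhesion molecule, had means of 200.05 ± 4.38 TMM-normalised CPM (reads brought to a common library size) under Control and 200.8 ± 5.50 under ADP-CM conditions (± SD, n = 3). PAX8, a Müllerian transcription factor, was also present, at 150 ± 6.12 and 182 ± 7.41 CPM, and was called higher in all 12 alternative fits. The epithelial genes CDH1 (163 ± 4.92 and 122 ± 2.62 CPM) and CLDN4 (56.1 ± 1.63 and 50.9 ± 2.27) were called lower. In Control, CLDN3, MUC1 and ESR1 had means of only 0.456, 0.953 and 1.51 CPM. SOX17 had 0 reads in all 6 libraries and PGR, the progesterone receptor, at most 12.

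Simple keratins made up most of the keratin message. In CPM per kilobase of transcript (RPKM), KRT18 stood at 1067 ± 19.8 in Control, KRT8 at 1033 ± 7.87 and KRT7 at 959.9 ± 25.4 (SD, n = 3). The next levels were 255 ± 3.58 RPKM for KRT17, 192 ± 2.79 for KRT19, 138 ± 3.27 for KRT13 and 119 ± 1.86 for KRT5. KRT15 followed at 19.98 ± 0.808 RPKM, KRT16 at 10.9 ± 0.514 and KRT80 at 5.90 ± 0.0406. No neighbours in this order overlapped, although KRT18 and KRT8 came close, with 1046 RPKM in the lowest library of the former and 1042 in the highest of the latter. In ADP-CM the order by RPKM was the same but for a swap of KRT7 (925 ± 17.3 RPKM) with KRT8 (806 ± 12.3) and of KRT80 (6.75 ± 0.337) with KRT16 (5.94 ± 0.136). KRT8 and KRT18 have many processed pseudogenes, and their levels depend on how length is counted. Of the 50-base windows that start in the transcript, 52.9% in KRT8 and 59.4% in KRT18 are unique, against 98.9% in KRT7. Unique windows match neither the genome outside the gene's own locus nor transcripts of other genes. Per kilobase of such unique starts KRT8 came first in Control at 2008 ± 15.3, then KRT18 at 1862 ± 34.6 and KRT7 at 1001 ± 26.5. On this scale KRT18 came first in ADP-CM at 1701 ± 14.4, then KRT8 at 1567 ± 23.9 and KRT7 at 965 ± 18.1. KRT16 (7.83 ± 0.179) also stayed above KRT80 (6.86 ± 0.343) there, so neither swap seen by RPKM occurred.

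**Figure D1:**
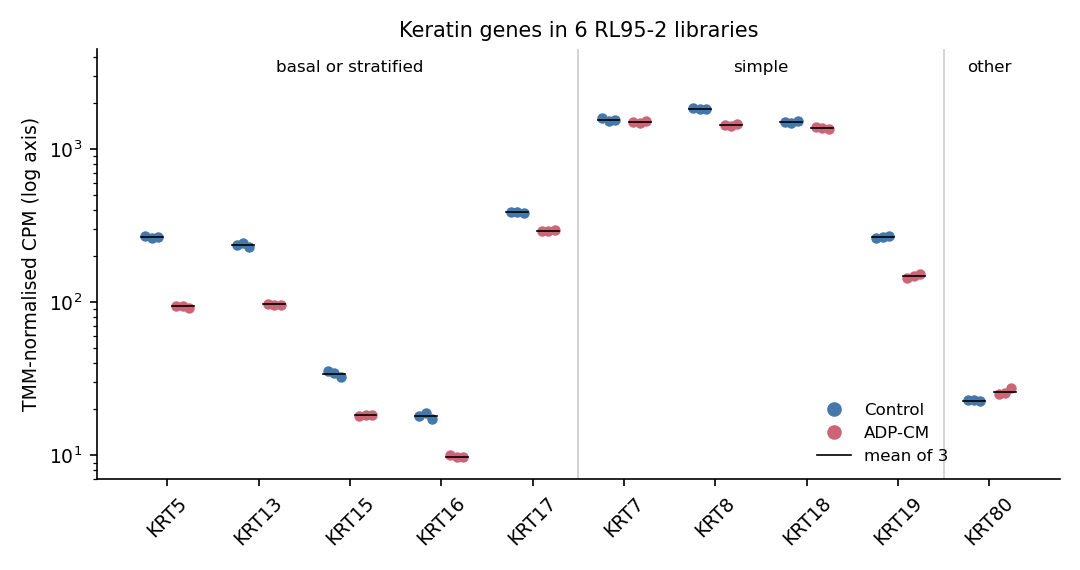
TMM-normalised CPM (log axis) of the 10 keratin genes in the 3 Control (blue) and 3 ADP-CM (red) libraries, each point 1 library and each bar the mean of 3. KRT5 lies between 262 and 271 CPM in Control and between 92.4 and 95.2 in ADP-CM, the groups of KRT7 overlap, and KRT80 is the 1 gene higher in ADP-CM.

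The basal or stratified keratins were all lower in ADP-CM, with KRT5 showing the greatest difference of the 10 genes. KRT5 (chr12:52908359-52914314, minus strand, GRCh37) had 271, 262 and 266 CPM in Control and 95.2, 94.9 and 92.4 CPM in ADP-CM. Its mean was 2.83-fold lower (log2 fold change -1.50, standard error (SE) 0.03). The values within each group lay close together and far from those of the other group.

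The 250 bases before the RefSeq start of KRT5 are shown as the sequence just upstream of the gene that differed most (GRCh38 chr12:52520395-52520644, found in GRCh37 at chr12:52914179-52914428, minus strand; the GENCODE gene model begins inside this window). Capitals mark matches to the letters searched.
KRT5 promoter: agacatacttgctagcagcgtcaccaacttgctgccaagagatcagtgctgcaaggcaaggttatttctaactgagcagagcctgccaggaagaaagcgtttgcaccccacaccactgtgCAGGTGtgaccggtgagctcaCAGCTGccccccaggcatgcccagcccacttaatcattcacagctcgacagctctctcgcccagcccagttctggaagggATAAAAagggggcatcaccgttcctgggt
The window has a GC content of 56%. It holds ATAAAA 29 bases before the start, letters found on either strand in 15.2% of the 27305 RefSeq promoter windows of this length. It also holds the E box letters CANNTG, first 130 bases before the start, as do 62.2% of windows. The letters TATAAA (11.1% of windows), TGANTCA of AP-1 (6.60%), TTCNNNGAA of STAT factors (6.78%) and GGGCGG (42.3%) were not in it, and none of these matches overlap one another.

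KRT13 (chr17:39657233-39661957) had 236, 243 and 232 CPM in Control and 97.9, 96.1 and 96.7 CPM in ADP-CM. It was 2.44-fold lower, a log2 fold change of -1.29 (SE 0.03), the nearest to KRT5 among the other 9 genes. Of its exonic bases 21.6% lie opposite an unnamed antisense gene, so those reads are uncertain if strand was not used in counting. KRT15 (chr17:39669997-39678781), a basal cell keratin, had 35.5, 34.3 and 32.7 CPM against 18.1, 18.4 and 18.5. The difference was 1.86-fold (log2 fold change -0.90, SE 0.06), with no overlap between the groups.

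KRT16 (chr17:39766030-39772151) had the fewest reads of the basal or stratified keratins, 292 to 320 per Control library and 178 to 183 per ADP-CM library. This gave 18.0, 19.0 and 17.3 CPM against 10.1, 9.71 and 9.73, a 1.83-fold lower mean (log2 fold change -0.87, SE 0.08). Part of KRT16 cannot be told from KRT14 by short reads. A stretch of 158 coding bases of exon 1 is identical in both, and reads lying inside it would align to both genes and be left uncounted. It is printed from GRCh37 with 20 bases on each side (chr17:39768448-39768645 for KRT16 and chr17:39742600-39742797 for KRT14, minus strand), the shared bases in capitals.
KRT16: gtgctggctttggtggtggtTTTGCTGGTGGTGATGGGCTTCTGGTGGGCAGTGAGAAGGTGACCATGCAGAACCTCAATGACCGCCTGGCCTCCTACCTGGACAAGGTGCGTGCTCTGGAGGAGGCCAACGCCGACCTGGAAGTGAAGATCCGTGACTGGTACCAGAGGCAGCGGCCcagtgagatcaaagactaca
KRT14: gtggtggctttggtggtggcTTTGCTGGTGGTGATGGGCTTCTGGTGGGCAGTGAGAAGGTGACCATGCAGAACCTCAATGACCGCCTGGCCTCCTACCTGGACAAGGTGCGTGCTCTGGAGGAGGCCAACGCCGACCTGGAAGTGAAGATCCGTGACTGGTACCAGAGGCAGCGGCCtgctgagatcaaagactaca
Unique 50-base starts were 78.2% of KRT16 and 75.8% of KRT14. KRT17 (chr17:39775694-39781094), at 82.6%, was the most abundant basal or stratified keratin by RPKM. It had 390.2, 391 and 381 CPM in Control and 294, 293 and 297 CPM in ADP-CM. The mean was 1.32-fold lower (log2 fold change -0.40, SE 0.02), the smallest difference of the 5.

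The simple keratins differed less, except KRT19. KRT19 (chr17:39679869-39684560), the keratin that lacks a tail domain, had 265, 266 and 272 CPM in Control and 145, 148 and 153 CPM in ADP-CM. It was 1.80-fold lower (log2 fold change -0.85, SE 0.03), close to KRT15 and KRT16. Thus 1 simple keratin lay among the basal ones, and 1 basal keratin, KRT17, lay near KRT8.

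KRT8 (chr12:53290971-53343738) had 1858, 1830.5 and 1841 CPM in Control and 1449.6, 1413 and 1452 CPM in ADP-CM. The mean was 1.28-fold lower (log2 fold change -0.36, SE 0.02). Its partner KRT18 (chr12:53342655-53346690, plus strand) had 1512, 1478 and 1534 CPM against 1389, 1378 and 1366, a 1.09-fold lower mean (log2 fold change -0.13, SE 0.02). Both pairs of groups were apart, but KRT18 by far less. In the annotation, 26.5% of KRT18 exonic bases lie opposite KRT8, and 4.60% lie under another gene of the same strand. The libraries were stranded, but the strand setting of the counting is not given in the sources used here. Reads of KRT18 and of its antisense partner are therefore uncertain there.

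KRT7 (chr12:52626304-52645970, plus strand), a keratin of glandular epithelium, was the 1 gene whose groups overlapped. It had 1601, 1518 and 1560.1 CPM in Control and 1505, 1474 and 1530.5 CPM in ADP-CM, a log2 fold change of -0.05 (SE 0.02). Of its exonic bases 13.6% lie opposite KRT7-AS. KRT80 (chr12:52562780-52585798) was the 1 gene with higher values, 23.0, 22.9 and 22.7 CPM in Control and 25.2, 25.6 and 27.6 CPM in ADP-CM. The log2 fold change was 0.19 (SE 0.06), a 1.14-fold higher mean.

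All 10 genes passed the filter on low counts. Between the groups, 8 of the 10 did not overlap and were lower in ADP-CM, as were 22.8% of the 12663 genes tested. KRT80 did not overlap and was higher, as were 22.7% of genes. KRT5, KRT13, KRT15, KRT16 and KRT19 were lower by more than 1.5-fold, a size reached by 1.90% of genes. An adjusted p under 0.01 by edgeR together with 1.5-fold was reached by 2.27% of all genes in either direction and by 1.14% as lower. These shares are given as background, since the genes were chosen on this contrast. The median log2 fold change was -0.90 over the 5 basal or stratified keratins and -0.24 over the 4 simple ones, against -0.00 over all tested genes. In bulk RNA, fewer cells of a kind and less message per cell cannot be told apart.

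**Figure D2:**
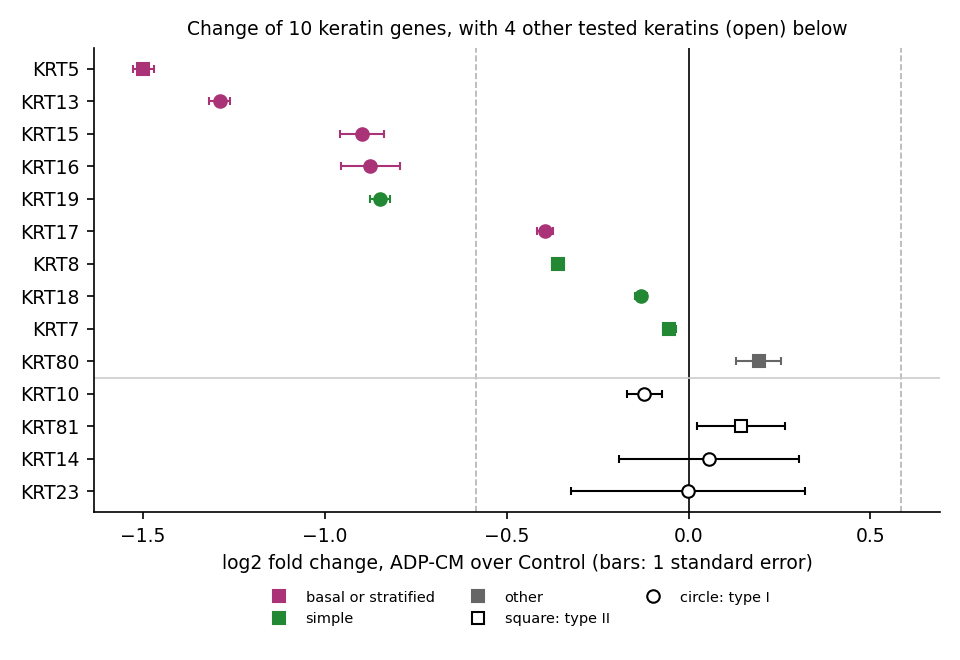
Log2 fold change (ADP-CM over Control, bars 1 SE) of the 10 keratin genes, coloured by class, with the 4 other tested keratins as open symbols below the line. Squares are type II and circles type I genes, and dashed lines mark 1.5-fold. KRT5 (-1.50) and KRT13 (-1.29) lie farthest to the left, KRT19 (-0.85) lies beside KRT15 (-0.90) and KRT16 (-0.87), and the open symbols lie between -0.12 and 0.15.

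As sums of RPKM, the basal or stratified keratins had 547, 548 and 535 in Control and 310.1, 308 and 310.1 in ADP-CM. The ratio of the means was 0.569. The simple keratins had 3287, 3198 and 3273 RPKM against 2826, 2781 and 2833, a ratio of 0.865. The basal or stratified share of both classes together was 14.3 ± 0.298% in Control and 9.91 ± 0.0588% after ADP-CM (± SD, n = 3), with no overlap. Within the pool of 10 by RPKM, KRT7 took 25.2 ± 0.379% in Control and 29.6 ± 0.308% in ADP-CM, and KRT18 went from 28.1 ± 0.343% to 31.2 ± 0.421%. The share of KRT5 was 3.13 ± 0.0184% in Control and 1.34 ± 0.0308% in ADP-CM. The shares of single genes depend on the length scale. Per kilobase of unique starts, KRT7 stood at 1001 in Control, far below KRT18 at 1862 and KRT8 at 2008.

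Type I and type II partners did not differ by the same factor. The ratio of KRT18 to KRT8 by RPKM was 1.03 ± 0.0169 in Control and 1.21 ± 0.0219 after ADP-CM (± SD, n = 3). That of KRT19 to KRT7 was 0.201 ± 0.00621 in Control and 0.116 ± 0.00269 in ADP-CM, so that relative to its partner the type I gene was higher in the former pair and lower in the latter. Over all 10 genes the type I sum was 1684 ± 14.7 RPKM in Control and 1350 ± 4.88 in ADP-CM, and the type II sum 2118 ± 35.1 and 1780.1 ± 28.8. The ratio of the sums was 0.795 ± 0.0104 in Control and 0.758 ± 0.0125 in ADP-CM. This direction depends on the length scale, since per kilobase of unique starts the same ratio was 0.816 ± 0.00940 and 0.827 ± 0.0140, with overlapping groups. The ratio of 2 single genes, such as KRT18 to KRT8, is multiplied by the same constant in both groups when the length changes, so its relative difference cannot depend on the scale.

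**Figure D3:**
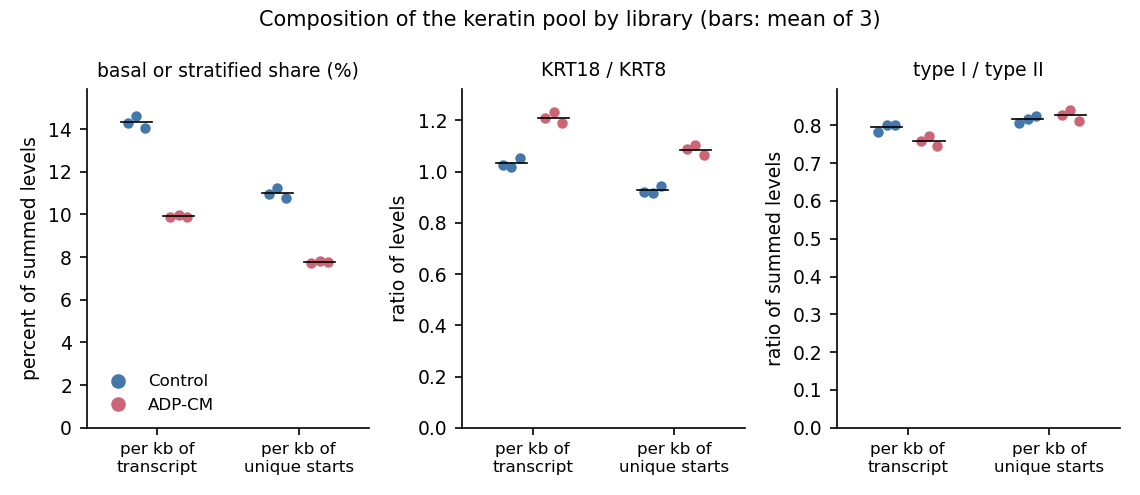
Basal or stratified share of the summed levels (left), KRT18 over KRT8 (middle) and type I over type II (right) in each Control (blue) and ADP-CM (red) library, with levels per kilobase of transcript or per kilobase of unique 50-base starts. Bars are means of 3. The share is 14.3 against 9.91% on the former scale, and the type I to type II ratio is 0.795 against 0.758 on the former and 0.816 against 0.827 on the latter. The KRT18 to KRT8 ratio differs between the scales only by a constant.

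The textbook partners of the basal or stratified keratins were scarce. KRT14, the type I partner of KRT5, had 25, 25 and 24 reads in Control and 23, 37 and 24 in ADP-CM, or 0.902 ± 0.0421 and 0.936 ± 0.258 RPKM. Its log2 fold change was 0.06 (SE 0.25), with an adjusted p of 0.887 by the quasi-likelihood test of edgeR. KRT4, the partner of KRT13, had 5, 6 and 8 reads against 4, 4 and 4, too few to be tested. Of the partners of KRT16 and KRT17, KRT6A had 5, 5 and 0 reads against 0, 2 and 1, KRT6C had 1 read in 1 Control library, and KRT6B had 0 reads in all 6. KRT5 shares 134 identical bases with KRT6C, 127 with KRT6B and 104 with KRT6A, so reads inside those stretches count for none of them. Unique starts made up 95.5% of KRT5 and 60.8% of KRT6A.

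Of the 45 keratin genes outside the 10, 26 had 0 reads in all 6 libraries and 36 had at most 3 reads in each. The filter kept 4 of them. By edgeR 0 of the 4 passed an adjusted p of 0.01 in either direction, 0 passed with DESeq2, and 1, KRT10, had an unadjusted p under 0.05. KRT10, a type I keratin of differentiating epidermis, had 44.6 ± 0.655 CPM under Control and 41.0 ± 1.47 under ADP-CM conditions (log2 fold change -0.12, SE 0.05, adjusted p = 0.0409 by edgeR). The other 3 were KRT14, KRT81 and KRT23. KRT81, a type II hair keratin, had a log2 fold change of 0.15 (SE 0.12, adjusted p = 0.367 by edgeR), and KRT23 one of -0.00 (SE 0.32, adjusted p = 0.998). Across all genes tested, 13.0% passed the same threshold as lower and 13.5% as higher. The pseudogene KRT8P41, close in sequence to KRT8, had 80, 109 and 97 reads against 86, 74 and 87 (log2 fold change -0.34, adjusted p = 0.0474 by edgeR).

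The 10 genes lie in the 2 keratin clusters of the genome, KRT18 being the type I gene housed among type II genes. On chromosome 17, KRT13, KRT15 and KRT19 are adjacent, with log2 fold changes of -1.29, -0.90 and -0.85. KRT14, which lies between them and KRT16, showed 0.06, as given above. On chromosome 12, KRT80 (0.19), KRT7 (-0.05) and KRT5 (-1.50) follow each other with values far apart, and KRT8 and KRT18 lie at the far end. Genes that are no keratins were then counted within 250 kb of each group of loci, a choice made after values were seen. The threshold was an adjusted p under 0.01 by edgeR, passed by 13.5% of all tested genes as higher and 13.0% as lower. With so few neighbours, their counts cannot be told from these shares. On chromosome 12, 8 were tested, ZNF740 rose (log2 fold change 0.21, SE 0.04, adjusted p = 3.65e-05 by edgeR) and 0 fell, with a median of 0.01. On chromosome 17, 8 were tested, with a median of -0.02. Of these FKBP10, a collagen-folding enzyme, rose (log2 fold change 0.53, SE 0.07, adjusted p = 8.16e-09 by edgeR), and JUP fell, as described below. NR4A1 had the lowest value on chromosome 12 (-0.69, SE 0.27) with overlapping groups and an adjusted p of 0.0344 by edgeR.

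**Figure D4:**
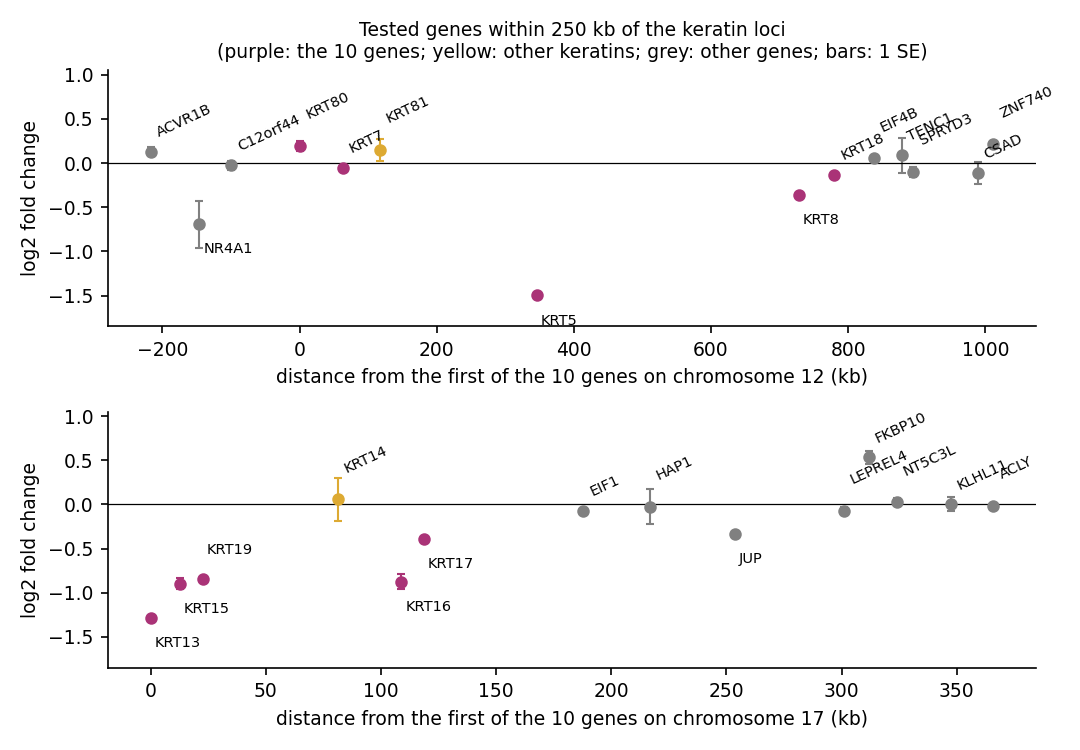
Log2 fold change (ADP-CM over Control, bars 1 SE) against distance in kb from the first of the 10 keratin genes on chromosomes 12 (top) and 17 (bottom), for every tested gene within 250 kb. Purple marks the 10 genes, yellow other keratins and grey other genes. KRT13, KRT15 and KRT19 sit side by side between -1.29 and -0.85, whereas KRT5 at -1.50 lies between KRT7 at -0.05 and KRT8 at -0.36.

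Likeness to KRT5 was measured as the Euclidean distance between log2 CPM profiles, each centred on its own mean, over the 6 libraries. Among the 10 genes KRT13 was nearest at 0.269, followed by KRT15 at 0.748, KRT16 at 0.792 and KRT19 at 0.802. KRT17 (1.35), KRT8 (1.40), KRT18 (1.67), KRT7 (1.77) and KRT80 (2.07) were farther. With replicates this close, the distance mostly reflects the size of the group difference. The order of the 10 genes therefore repeats that of their log2 fold changes and is no separate evidence. Among the 10541 other genes with a mean of at least 5 CPM, the nearest was ID2, a dominant negative helix-loop-helix protein, at 0.230. Its values were 20.3, 20.7 and 19.6 CPM in Control and 7.18, 8.23 and 7.72 in ADP-CM (log2 fold change -1.39, SE 0.08). ID4, a relative of ID2, stood at 0.561 with a log2 fold change of -1.06 (SE 0.06). HMGCS1, an enzyme of the mevalonate pathway, stood at 0.616 and was 2.00-fold lower (SE 0.03 on the log2 scale). TP73, a relative of the basal cell factor TP63, stood at 0.628 with -1.07 (SE 0.13). These genes were picked for this pattern and are not tested.

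Genes that accompany keratins were counted in 6 lists, chosen with earlier results of these data known. Calls were made at an adjusted p under 0.01 by edgeR, which 13.5% of all tested genes passed as higher and 13.0% as lower. Of 20 basal cell genes, 19 were tested, 5 rose and 6 fell, with a median log2 fold change of -0.00. TRIM29, a gene of basal epithelium, fell from 259 ± 9.42 to 158 ± 3.36 CPM (log2 fold change -0.71, SE 0.03, adjusted p = 4.49e-32 by edgeR). The desmosomal cadherin DSC3 fell by 0.31 on the log2 scale (SE 0.03, adjusted p = 7.50e-16 by edgeR). ITGA6, the integrin chain of hemidesmosomes, rose from 661 ± 6.41 to 769 ± 15.1 CPM (log2 fold change 0.22, SE 0.02, adjusted p = 4.39e-15 by edgeR). TP63, the defining transcription factor of basal cells, had 177 ± 3.12 CPM in Control and 174 ± 7.36 in ADP-CM, with overlapping groups and an adjusted p of 0.614 by edgeR. The basal list as a whole thus had calls on both sides.

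Of 31 cornification genes, 11 were tested, 3 rose and 4 fell, with a median of 0.11. IVL (involucrin), a component of the cornified envelope, fell from 26.3 ± 0.783 to 14.7 ± 0.202 CPM (log2 fold change -0.84, SE 0.07, adjusted p = 1.13e-16 by edgeR). CSTA, a protease inhibitor of the envelope, rose from 14.6 ± 1.70 to 21.8 ± 0.689 CPM (0.57, SE 0.07, adjusted p = 2.35e-09 by edgeR). S100A9 fell by 0.23 on the log2 scale (SE 0.04, adjusted p = 5.75e-06 by edgeR), a call lost with DESeq2, where its adjusted p was 0.0320. The counts of this list were unstable: with DESeq2 1 gene was called higher and 1 lower, without Control replicate 1 the numbers were 1 and 3, without Control replicate 2 they were 1 and 2, and without Control replicate 3 or ADP-CM replicate 1 they were 3 and 2. The median turned to -0.12 where genes of low counts were kept.

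Of 22 simple epithelium genes, 20 were tested, 2 rose and 10 fell, with a median of -0.09. The number called lower was 8 with DESeq2, without Control replicate 1, without Control replicate 3 and without ADP-CM replicate 1. MAL2 and CLDN4, both called lower, each kept the call in 6 of 12 alternative fits. ELF3, an epithelial ETS factor, fell from 367 ± 5.59 to 254 ± 5.47 CPM (log2 fold change -0.53, SE 0.02, adjusted p = 4.09e-29 by edgeR). The membrane protease ST14 (-0.41, SE 0.03, adjusted p = 5.30e-20) and the adherens junction cadherin CDH1 (-0.42, SE 0.03, adjusted p = 1.14e-18) also fell by edgeR. EPCAM had a log2 fold change of 0.01 (adjusted p = 0.900 by edgeR). The 2 that rose, named after their values were seen, were EHF, another epithelial ETS factor (5.57 ± 0.604 to 10.8 ± 0.362 CPM), and the mucin MUC1. MUC1 had 0.740, 1.24 and 0.877 CPM in Control and 1.88, 1.36 and 3.70 CPM in ADP-CM, and its call was lost without ADP-CM replicate 3 (log2 fold change 0.76, adjusted p = 0.0417 by edgeR, against 1.27 with all libraries).

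Of 15 keratin linkers, 13 were tested, 3 rose and 2 fell, with a median of -0.04. JUP (plakoglobin), a desmosomal plaque protein, fell from 609.8 ± 2.44 to 484 ± 11.7 CPM (log2 fold change -0.33, SE 0.02, adjusted p = 6.17e-22 by edgeR), and PPL (periplakin) fell by 0.41 on the log2 scale (SE 0.06, adjusted p = 1.56e-07 by edgeR). DST, whose epithelial isoform ties keratins to hemidesmosomes, rose from 362 ± 4.16 to 453 ± 13.9 CPM (0.32, SE 0.02, adjusted p = 2.01e-19 by edgeR). Of 15 other intermediate filament genes, 7 were tested, 0 rose and 5 fell, with a median of -0.16. The number called lower was 3 with DESeq2, 3 without Control replicate 2 and 3 without ADP-CM replicate 2, where 1 was called higher. The nuclear lamins LMNB1 (-0.26, SE 0.02, adjusted p = 2.23e-13), LMNA (-0.19, SE 0.02, adjusted p = 1.01e-09) and LMNB2 (-0.12, SE 0.02, adjusted p = 1.85e-06) fell by edgeR. VIM (vimentin), the mesenchymal filament gene, had 3, 4 and 3 reads in Control and 12, 6 and 14 in ADP-CM, too few to pass the filter. The lamins are filaments of the nucleus and not of the cytoplasm.

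Of 42 transcription factors known to act on keratin genes, 37 were tested, 7 rose and 8 fell, with a median of -0.02. ELF3 again had the smallest p. ETS1 rose from 297 ± 2.76 to 353 ± 9.57 CPM (log2 fold change 0.25, SE 0.02, adjusted p = 7.80e-14 by edgeR), and OVOL1, a regulator of epithelial differentiation, fell to 13.1 ± 1.59 CPM under ADP-CM (-0.61, SE 0.08, adjusted p = 1.76e-09 by edgeR). Over the 6 lists 54 genes passed, ELF3 counted once.

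**Figure D5:**
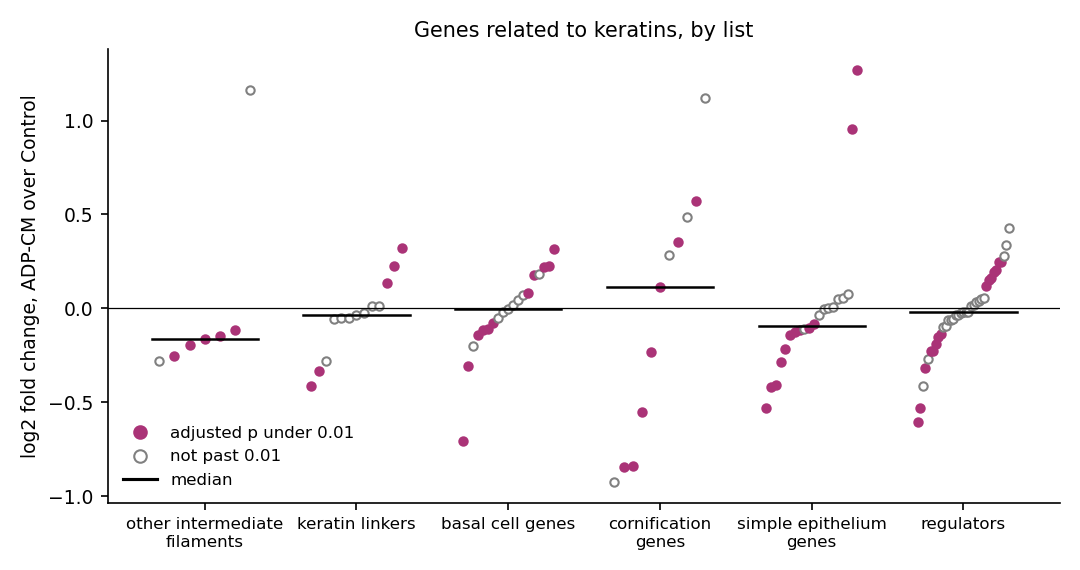
Log2 fold change (ADP-CM over Control) of every tested gene of the 6 lists, each point 1 gene, filled where the adjusted p of edgeR was under 0.01, with the median of each list as a bar. Basal cell genes lie on both sides of 0 around a median of -0.00, and simple epithelium genes around -0.09 with 2 called higher and 10 called lower.

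Markers of other cells were read beside these values, with the same threshold of edgeR. Of 24 adipocyte markers 5 were tested and 1, LIPE, fell. Their sum was 50.0 to 53.6 CPM in Control and 47.9 to 49.8 in ADP-CM, with 11 of them, ADIPOQ and LEP included, at 0 reads throughout. Of 10 stromal markers 3 were tested and 2, FAP and COL1A1, rose, the sum being 68.7 to 75.3 CPM in Control and 93.7 to 96.8 in ADP-CM, with 1 marker at 0. Of 10 leukocyte markers 2 were tested and CD68 rose (sum 9.47 to 10.2 and 11.1 to 13.1 CPM, 2 markers at 0). Of 8 endothelial markers 2 were tested and ESAM fell (sum 62.7 to 68.7 and 55.9 to 62.7 CPM, 2 markers at 0). The call of ESAM was lost with DESeq2 (adjusted p = 0.0582), without any 1 of the 3 Control replicates (adjusted p from 0.0111 to 0.0368 by edgeR) and without ADP-CM replicate 2 (adjusted p = 0.107 by edgeR), and a minimum of 10 counts in every library removed the gene. The part of these differences in the keratin values was not tested.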

How the data were processed

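Stranded poly(A) RNA-seq libraries (50-base single reads) of RL95-2 cells (3 Control, 3 ADP-CM) were analysed. The authors aligned reads to hg19 with TopHat2 and deposited raw counts per RefSeq gene made with HTSeq; the submitters' processing notes also name bcl2fastq and SAMtools, and versions and the strand setting of the counting are not given in the sources used here. HTSeq skips reads with several alignments (20.5 to 20.8% of all counting entries, summary lines included) and reads on overlapping genes (0.709 to 0.721%). Summary lines naming no gene entered neither library sizes nor tests.

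From the counts, CPM normalised by TMM (trimmed mean of M values), log2 fold changes, standard errors and quasi-likelihood tests were computed with edgeR 4.0.16 in R 4.3.3 (filterByExpr defaults, 12663 of 23228 genes, Benjamini-Hochberg over all of them, adjusted p under 0.01). Group and replicate came from the labels. Both groups entered the fit, without covariates. The common biological coefficient of variation was 1.67%, and the script was tested on simulated data. RPKM used GENCODE 44 transcript lengths on GRCh37. Unique starts were read-length transcript windows of 50 bases. They had no match in that genome outside the gene's own locus and none in transcripts of other genes. Coordinates are GENCODE's on GRCh37. RefSeq promoter windows (GRCh38.p14) matched 2 of the 10 genes, KRT5 and KRT8. SEs were derived from the log2 fold change and the quasi-likelihood statistic of edgeR, which includes the spread between libraries. If that spread is technical, SDs and SEs do not cover variation between cultures.

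The 10 genes and all lists were chosen with earlier results of these data known. Besides the 10 genes, the text names tested keratins past the threshold, textbook partners, up to 3 genes with the smallest p in each list, and the 5 nearest to KRT5, of which 1 is not reported here. The alternatives were DESeq2 1.42.0, its size factors, plain library sizes, no filter, at least 10 counts per library, a replicate block, each library left out, and other units and lengths for the keratin sums.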

Additional observations from a re-analysis of the deposited data

Results flagged for a closer look

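Reads that fell on no gene took 11.5% ± 0.0331 of all counting entries in ADP-CM against 10.3% ± 0.0528 in Control (SD, n = 3 each). This signal outside the gene counts was higher than in the control samples.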

How the results depend on the processing

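None of the 10 keratin log2 fold changes changed sign under the 12 alternatives run (other scalings, DESeq2, other filters, the replicate block, each library left out). All of these alternatives reuse the same 6 libraries. KRT5 ranged from -1.51 to -1.49, KRT7 from -0.07 to -0.03 and KRT80 from 0.15 to 0.22. The median of the basal or stratified keratins ranged from -0.93 (without Control replicate 3) to -0.88 over the left-out libraries. The type I to type II ratio, ADP-CM over Control, was 0.953 by RPKM, 0.922 without KRT5 and 1.01 per uniquely mappable start (chosen after seeing the data), which reverses it. The share of basal or stratified keratins changed by -4.41 percentage points by RPKM, -5.09 by CPM, -2.87 without KRT5 and -3.22 per uniquely mappable start. KRT8 stood 1.08 times as high as KRT7 in Control by RPKM and 2.01 times per uniquely mappable start. These follow from the lengths and genes entered. Past an adjusted p of 0.01 and 1.5-fold there were 288 genes, 195 with DESeq2, 256 to 288 with a library left out, and 3357 with no limit on the fold. Of the listed genes 54 were called, 43 with DESeq2 and 46 to 53 with a library left out. No other keratin gene was called under any alternative run. The labels share replicate numbers, but same-numbered samples deviated together with correlations of only 0.0685, 0.0202 and 0.0945, so they were not treated as pairs; each Control library correlated best with its own number, a hint from the data. With the replicate block 297 genes and 55 listed genes were called. Genes with a few reads, such as KRT4 and KRT6A, are limited by depth.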
